A study of Homo sapiens with 24 samples.

Results

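YAP1 and WWTR1, which encodes TAZ, were followed with 8 genes of the same pathway, CTGF, CYR61, ANKRD1, AMOTL1, AMOTL2, LATS1, LATS2 and AXL, by looking up these 10 gene names in the 4 deposited tables. All 10 were found in every table, out of 16742 genes listed in at least 1 table and 13107 listed in all 4. The Hippo pathway is a kinase cascade in which the MST kinases with SAV1 activate the LATS kinases with MOB1, and the LATS kinases phosphorylate YAP and TAZ, which are then held in the cytoplasm and degraded. Without this phosphorylation YAP and TAZ enter the nucleus and switch on genes together with the TEAD transcription factors, a response known for its dependence on cell spreading, cell density and tension of the cytoskeleton. CTGF (now named CCN2), CYR61 (now CCN1) and ANKRD1 are the most used readouts of this activity.

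Total RNA of 4 aneuploid human lines and their parental lines was sequenced, with 3 libraries of each line and 24 in all. HCT116, a colorectal cancer line, was the parent of HCT116 5/4, which carries 4 copies of chromosome 5, and HCT116* (with histone H2B tagged with GFP, as the asterisk marks throughout) was the parent of HCT116* 8/3 c7, with 3 copies of chromosome 8. RPE1, retinal pigment epithelial cells immortalized with hTERT, was the parent of RPE1 5/3 12/3, with 3 copies of chromosomes 5 and 12, and RPE1*, which likewise expresses H2B-GFP, of RPE1* 21/3, with 3 copies of chromosome 21. HCT116 5/4 was received from another laboratory and the origin of its parent HCT116 is given in more than 1 way, while HCT116* was made from cells of a cell bank and 8/3 c7 is a single clone, so that karyotype, tag and origin of the cells cannot be told apart between the HCT116 tables. The extra chromosome 12 of RPE1 5/3 12/3 was gained spontaneously.

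Each table gives, per gene, 1 mean normalized count over the 3 libraries of the aneuploid line and the 3 of its parental line together. The other columns hold the authors' own comparison of the line with its parent and were not used, so neither the change caused by a gained chromosome nor an error per value is given here. No difference below has a test, since the means carry no spread and the 2 tables of a background are not replicates of each other. A mean over 2 groups of equal size nevertheless sets a limit, as the mean of either group cannot exceed 2 times the pooled mean. A gene was therefore called higher in a background when each of its 2 tables lay at least 2-fold above each table of the other background, after the tables had been brought to one scale. Among 15168 genes whose mean reached 10 in 1 or more tables, 10.0% were called higher in the RPE1 tables and 9.90% in the HCT116 tables. Genes missing from a table could not be called but count in these shares, whereas the 10 listed genes are in every table. The shares among genes that could be called are therefore higher. The scale matters for this balance, since 50.3% of the calls were toward RPE1 with the median of ratios, 37.6% with the means as deposited and 32.2% with each table scaled to its total. Relative to the median of ratios, the latter scales moved the median log2 ratio of all genes by -0.26 and -0.34.

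The tables list between 14292 and 15610 genes, and the depth of single libraries is unknown from these files. Markers of the labelled cell types were mixed. EPCAM, CDH1 and KRT19, which define epithelial cells of the colon and other linings, had means of 4192 and 5683, 1685 and 2534, and 18421 and 19183 in the HCT116 5/4 and HCT116* 8/3 c7 tables, whereas VIL1 was listed in 0 tables. In the RPE1 tables the pigment epithelium regulators MITF (1439 and 1124) and OTX2 (715.3 and 418.6) were present, TYR and TYRP1 were listed in 0 tables, and RPE65, the visual cycle isomerase, was lower (10.4 and 4.58) than in the HCT116 tables (286.7 and 193.9).

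The promoters of CTGF, ANKRD1, AMOTL2 and AXL are shown first, because YAP and TAZ reach DNA through TEAD proteins, whose recognition core is GGAATG. Each sequence shown holds a match, while the windows of the first AMOTL2 and AXL starts hold 0 and are not shown. The 250 bases before the transcription start are given 5′ to 3′ from RefSeq on GRCh38.p14, with each match to GGAATG on either strand (CATTCC on the other) in capitals. The CTGF sequence lies at chr6:131951373-131951622 on the minus strand, that of ANKRD1 at chr10:90921088-90921337 on the minus strand, that of the second AMOTL2 start at chr3:134374448-134374697 on the minus strand, and that of the second AXL start at chr19:41226505-41226754 on the plus strand.
CTGF: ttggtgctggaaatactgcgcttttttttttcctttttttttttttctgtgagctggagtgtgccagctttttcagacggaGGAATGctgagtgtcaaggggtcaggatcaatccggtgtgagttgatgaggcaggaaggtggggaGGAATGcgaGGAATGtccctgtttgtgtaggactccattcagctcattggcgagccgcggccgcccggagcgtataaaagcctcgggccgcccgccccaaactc
ANKRD1: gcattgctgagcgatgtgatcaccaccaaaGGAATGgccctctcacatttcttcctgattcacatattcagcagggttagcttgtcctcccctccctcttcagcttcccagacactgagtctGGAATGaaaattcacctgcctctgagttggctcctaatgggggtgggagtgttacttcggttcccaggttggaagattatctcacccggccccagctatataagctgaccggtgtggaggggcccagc
AMOTL2: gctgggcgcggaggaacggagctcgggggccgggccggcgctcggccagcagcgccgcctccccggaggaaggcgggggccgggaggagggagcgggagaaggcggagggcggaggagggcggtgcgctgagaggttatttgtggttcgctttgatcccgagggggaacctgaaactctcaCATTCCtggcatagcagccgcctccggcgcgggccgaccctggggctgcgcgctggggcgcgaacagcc
AXL: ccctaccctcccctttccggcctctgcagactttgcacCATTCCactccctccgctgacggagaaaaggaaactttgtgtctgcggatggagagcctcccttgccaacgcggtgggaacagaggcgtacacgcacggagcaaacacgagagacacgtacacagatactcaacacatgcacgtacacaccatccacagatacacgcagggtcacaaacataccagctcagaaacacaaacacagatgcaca

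CTGF held 3 matches, whose first bases lie 169, 104 and 95 bases before the start, and ANKRD1 held 2, at 220 and 128 bases. Single matches were found for YAP1 at 162 bases before its start, for AMOTL2 at 69 bases and for AXL at 212 bases before the second start of each, and for LATS2 at 10 bases after its start. WWTR1, AMOTL1 and LATS1 had 0 matches in their windows, and CYR61 was not matched to a window. In all, 6 of the 9 genes with a window of 250 bases before to 50 after a start held the motif, where 14.03% of all 35116 windows and 15.5% of 12397 genes of the tables did. At least 2 matches were present in 1.37% of all windows. Of a wider list of 14 YAP/TAZ target genes with a window, 6 held the motif, and of 20 Hippo pathway and TEAD genes, 4 did. The AP-1 motif TGACTCA was searched on both strands as well, because AP-1 often binds near TEAD, and it was found in 0 of the 9 genes and in 4.95% of all windows. The genes were listed as members or targets of this pathway, so a share above that of all genes is not an independent result. A match is a string of letters and not evidence of binding.

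**Figure D1:**
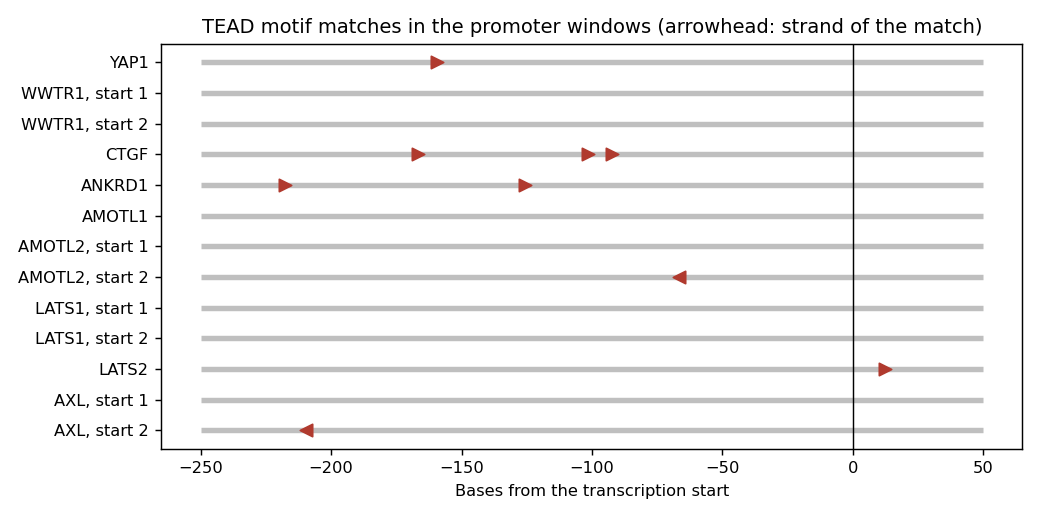
Positions of TEAD motif matches (arrowheads pointing right for the strand of the gene and left for the other strand) in the promoter windows of 9 genes, in bases from the transcription start on the x axis, with 1 bar per annotated start. CTGF has 3 matches and ANKRD1 has 2, while the windows of WWTR1, AMOTL1 and LATS1 have 0.

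Among the 10 genes, ANKRD1, CTGF and AXL had the widest ratios between the RPE1 and the HCT116 tables, followed by CYR61. CTGF, a secreted matricellular protein, had a mean normalized count of 1106 in the HCT116 5/4 table, 186.1 in the HCT116* 8/3 c7 table, 11614 in the RPE1 5/3 12/3 table and 16606 in the RPE1* 21/3 table. The RPE1 tables lay far above both HCT116 tables, on average 36.6-fold on the common scale and 11.1-fold at the closest pair. ANKRD1, a nuclear and sarcomeric ankyrin repeat protein, had means of 84.7, 9.15, 7725 and 15548 in the same order of tables. Its ratio was the widest of the 10 genes, 471-fold on average and 96.7-fold at the closest pair, and 0.067% of the 11939 genes whose mean reached 10 in all tables had a higher one. As the mean of 9.15 is under that minimum, the average for ANKRD1 rests on a low value in the HCT116* 8/3 c7 table.
CYR61, the second matricellular readout, was also abundant in HCT116. Its means were 3971, 5390, 18593 and 26299, so that the RPE1 tables were 5.72-fold higher on average and 3.79-fold at the closest pair. AXL, a receptor tyrosine kinase for GAS6, had means of 1551, 1353, 25672 and 26997, a ratio of 21.7-fold on average and 17.6-fold at the closest pair. For AXL the tables of the same background were 1.19-fold apart in HCT116 and 1.29-fold in RPE1 on the common scale, far less than between backgrounds. Log2 ratios of the RPE1 to the HCT116 tables as high as those of AXL and CTGF were rare, with 1.06% and 0.62% of the 11939 genes above them.

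**Figure D2:**
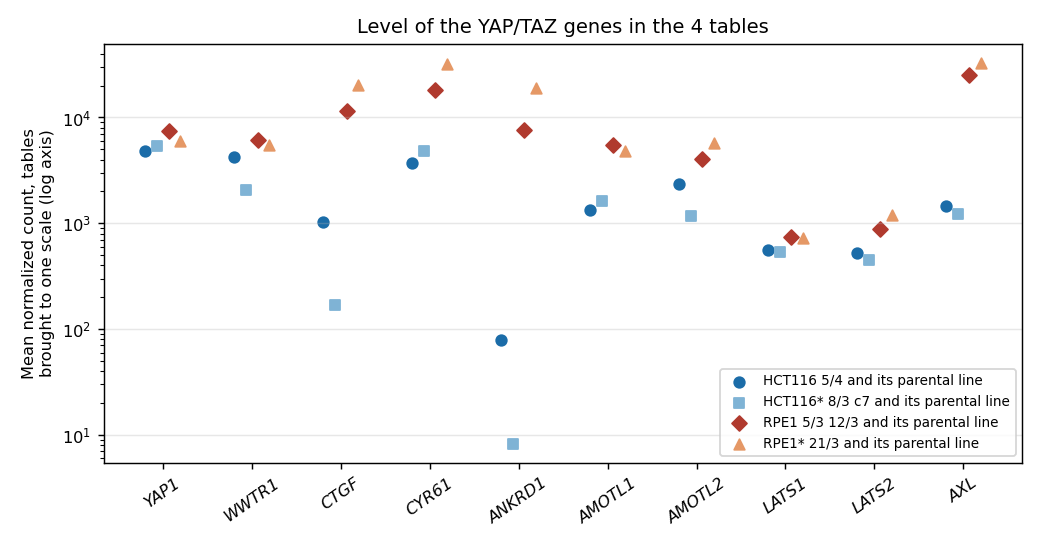
Mean normalized count of the 10 genes (log y axis) in the 4 tables after scaling by the median of ratios. Each point is 1 pooled mean over a line and its parental line, without error bars, and the 5 genes with the widest gaps between blue (HCT116) and red (RPE1) points are CTGF, CYR61, ANKRD1, AMOTL1 and AXL.

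The effectors themselves differed far less. YAP1 had means of 5139 in the HCT116 5/4 table, 6006 in the HCT116* 8/3 c7 table, 7523 in the RPE1 5/3 12/3 table and 4952 in the RPE1* 21/3 table. The order of these means as deposited overlaps between backgrounds, and on the common scale the RPE1 tables were 1.31-fold higher on average and 1.11-fold at the closest pair. WWTR1 had means of 4555, 2318, 6198 and 4544, with a ratio of 1.95-fold on average and 1.30-fold at the closest pair. Neither gene was called. Per kilobase of the longest transcript, YAP1 was at 1.05 times the level of WWTR1 in the HCT116 5/4 table, 2.42 times in the HCT116* 8/3 c7 table, 1.13 times in the RPE1 5/3 12/3 table and 1.02 times in the RPE1* 21/3 table. With the median transcript length the ratios were 0.45, 1.03, 0.48 and 0.43 in the same order, so which of the mRNAs was the more abundant depends on the length assumed, while the ratio was highest in the HCT116* 8/3 c7 table with either. By level per kilobase YAP1 belonged to the top 8.45%, 7.77%, 6.42% and 8.21% of the genes in the 4 tables.

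Of the inhibitory kinases, neither was called. LATS1 had means of 606.2, 600.2, 745.1 and 593.0 in the same order of tables, with a ratio of 1.32-fold on the common scale and an overlap of the backgrounds in the means as deposited. LATS2, which is a target of YAP as well as its inhibitor, had means of 568.0, 498.5, 888.6 and 993.7. Here the RPE1 tables were 2.11-fold higher on average, but only 1.66-fold at the closest pair, so the gene was not called. Per kilobase, LATS2 exceeded LATS1 by 1.24 and 1.10 times in the HCT116 tables and by 1.58 and 2.22 times in the RPE1 tables. With median transcript lengths the ratios of LATS2 to LATS1 were 1.02 and 0.90 in the HCT116 tables and 1.30 and 1.82 in the RPE1 tables, so the direction in the HCT116* 8/3 c7 table rests on the length chosen.
The angiomotin-like proteins, which bind YAP at junctions and actin, were both higher in the RPE1 tables. AMOTL1 had means of 1442, 1824, 5535 and 3961, a ratio of 3.45-fold on average and 2.93-fold at the closest pair, and was called. AMOTL2, a direct target of YAP, had means of 2539, 1299, 4132 and 4765, a ratio of 2.92-fold on average and 1.73-fold at the closest pair, and was not called.

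In total 5 of the 10 genes were called higher in the RPE1 tables, where 10.0% of all genes were, and 0 in the HCT116 tables, where 9.90% were. The 5 called genes were CTGF, CYR61, ANKRD1, AMOTL1 and AXL. On the common scale every RPE1 table lay above every HCT116 table for all 10, but YAP1 and LATS1 overlapped when the tables were scaled to their totals, and YAP1, LATS1 and WWTR1 when the means were taken as deposited. The median log2 ratio of the 10 genes was 1.67, against -0.0034 over the 11939 genes. For each of the 5 called genes the lower RPE1 table exceeded 2 times the higher HCT116 table on the common scale, which is the most that HCT116, HCT116*, HCT116 5/4 or HCT116* 8/3 c7 alone could have reached.

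**Figure D3:**
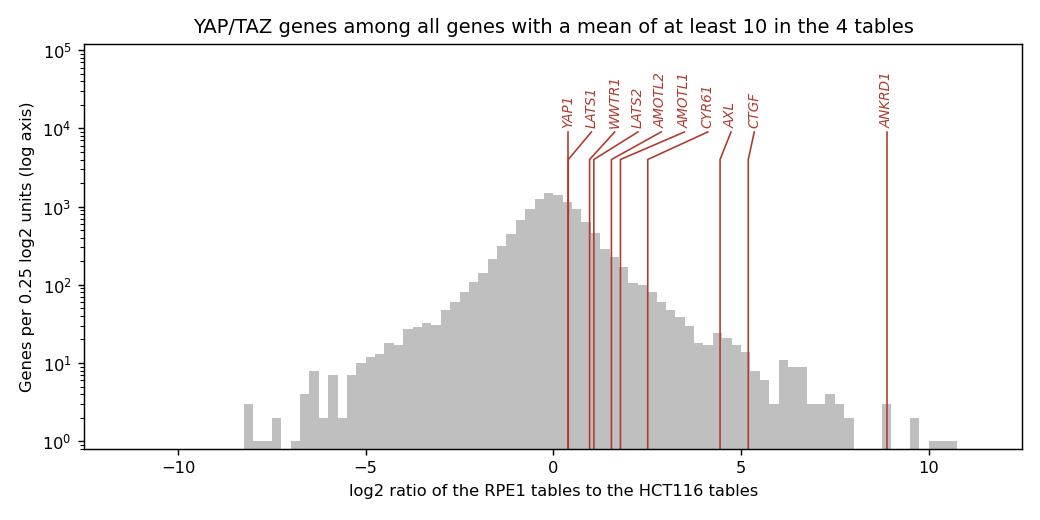
Distribution of the log2 ratio of the RPE1 tables to the HCT116 tables (x axis) for the 11939 genes whose mean reached 10 in all 4 tables, as genes per bin on a log y axis, with the 10 YAP/TAZ genes as red lines, ANKRD1 being drawn although its mean of 9.15 in 1 table keeps it out of the bins. YAP1 and LATS1 lie within the bulk of genes at 0.39 and 0.40, and AXL, CTGF and ANKRD1 lie in the right tail at 4.44, 5.19 and 8.88.

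Per kilobase, the order of the 10 genes changed with the background. In the HCT116 5/4 and HCT116* 8/3 c7 tables CYR61 was first and YAP1 and WWTR1 followed, while ANKRD1 was last. In the RPE1 5/3 12/3 table the leading genes were CYR61, AXL, CTGF and ANKRD1, and in the RPE1* 21/3 table ANKRD1, CYR61, CTGF and AXL. ANKRD1 moved from the lowest place in HCT116 to the top 1.69% and 0.60% of all genes by level per kilobase in the RPE1 tables. LATS1 was last in both RPE1 tables. CYR61 exceeded CTGF per kilobase by 2.72 times and 22.0 times in the HCT116 5/4 and HCT116* 8/3 c7 tables, but by only 1.22 times and 1.20 times in the RPE1 tables. These places depend on the transcript length assumed, and with the median transcript 2 of the 10 genes kept theirs.

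Within HCT116, some targets differed between the tables and others did not. CTGF was 6.15-fold and ANKRD1 9.59-fold higher in the HCT116 5/4 table than in the HCT116* 8/3 c7 table on the common scale. These gaps exceed 2-fold, so at least 1 of HCT116 and HCT116 5/4 had more CTGF and ANKRD1 than both HCT116* lines. Only 0.29% of the 11939 genes differed as much as CTGF between these tables, whose median gap was 1.15-fold. WWTR1 and AMOTL2 were 2.03-fold and 2.02-fold higher in the HCT116 5/4 table, or 1.97-fold and 1.95-fold in the means as deposited. CYR61 went the other way, being 1.31-fold higher in the HCT116* 8/3 c7 table, and AXL (1.19-fold), LATS2 (1.18-fold) and LATS1 (1.05-fold) were close to level.
Within RPE1, the canonical targets were higher in the RPE1* 21/3 table. ANKRD1 was 2.47-fold, CTGF 1.76-fold, CYR61 1.74-fold, AMOTL2 1.42-fold, LATS2 1.37-fold and AXL 1.29-fold higher there than in the RPE1 5/3 12/3 table. The median gap of all genes between the RPE1 tables was 1.12-fold, and 3.58% differed as much as CTGF. YAP1 (1.24-fold), AMOTL1 (1.14-fold), WWTR1 (1.11-fold) and LATS1 (1.02-fold) were higher in the RPE1 5/3 12/3 table instead. Each table pools a line with its parent, and the H2B-GFP tag and the karyotype both differ between the RPE1 tables. The parts of tag and karyotype in these gaps cannot be told apart.

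None of the 10 genes lies on chromosome 5, 8, 12 or 21, the chromosomes given as gained. The copy number of other chromosomes, chromosome 11 included, was not examined here. On GRCh37, YAP1 spans positions 101981178 to 102104155 and AMOTL1 94439597 to 94609913, both on the plus strand of the long arm of chromosome 11. WWTR1 (149235022 to 149454501) and AMOTL2 (134074189 to 134094321) are on chromosome 3, CTGF (132269316 to 132272512) and LATS1 (149979289 to 150039241) on chromosome 6, CYR61 (86046444 to 86050272) on chromosome 1, ANKRD1 (92671853 to 92680844) on chromosome 10, LATS2 (21547175 to 21635725) on chromosome 13 and AXL (41725128 to 41767671) on chromosome 19. Exons of WWTR1 share 756 bases with the antisense gene WWTR1-AS1, which is itself listed in a table, and no strand option is named for the counting, so that reads of this stretch cannot be assigned to either.

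Because YAP1 and AMOTL1 share a chromosome arm, the pooled means of the 2 RPE1 tables were set side by side along it, with log2 ratios centred on the genes outside chromosomes 5, 8, 12 and 21. The median log2 ratio of the RPE1 5/3 12/3 table to the RPE1* 21/3 table was 0.22 over the 468 genes of the long arm, with 80.3% of them above 0 and the quartiles at 0.059 and 0.40. The 222 genes of the short arm had a median of -0.023. YAP1 was at 0.35 and AMOTL1 at 0.22, with 30.1% and 49.6% of the long arm's genes higher. Both lay between these quartiles. Among genes within 5 Mb, the 14 around YAP1 had a median of 0.12 and quartiles at -0.13 and 0.29, so YAP1 lay above their upper quartile. The 23 around AMOTL1 had a median of 0.34, above AMOTL1, with quartiles at 0.20 and 0.47. The gained chromosomes gave a measure of scale, with medians of 0.31 for the 587 genes of chromosome 5, 0.31 for the 661 genes of chromosome 12 and -0.38 for the 119 genes of chromosome 21, which is gained in the other table. Between the HCT116 tables the long arm had a median of -0.023 over 495 genes, YAP1 was at -0.15 and AMOTL1 at -0.27, while chromosome 5 had a median of 0.45. CTGF, CYR61 and ANKRD1 had ratios of -0.77, -0.76 and -1.27 between the RPE1 tables, opposite in sign to YAP1. A link between the level of YAP1 and these genes was not tested.

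**Figure D4:**
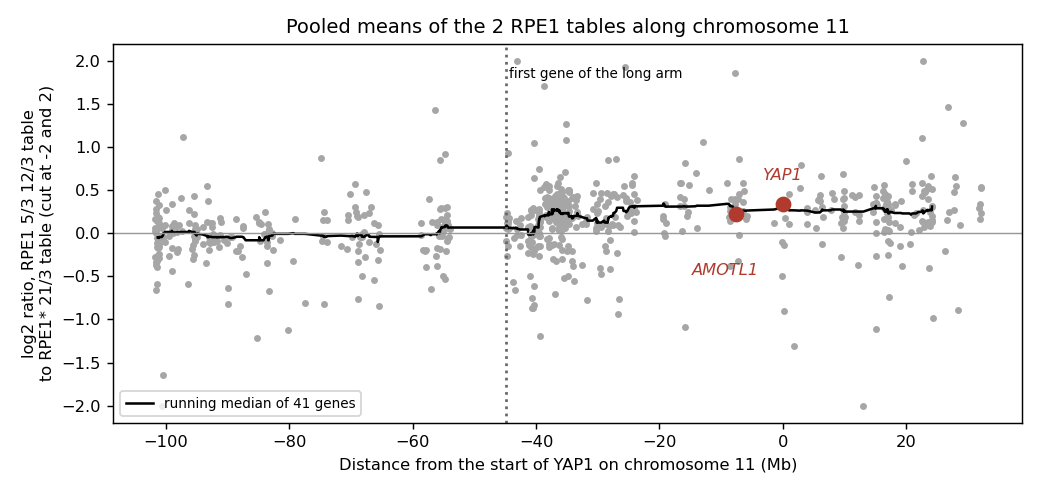
Log2 ratio of the RPE1 5/3 12/3 table to the RPE1* 21/3 table (y axis, cut at -2 and 2) for genes of chromosome 11 by distance from the start of YAP1 in Mb (x axis), with a running median of 41 genes. The medians of the short and long arms were -0.023 and 0.22, and YAP1 (0.35) and AMOTL1 (0.22) lie near the running median.

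Other target genes of YAP and TAZ followed the canonical ones. Of 20 further targets, all with a mean of at least 10 in a table, 13 were called higher in the RPE1 tables and 0 in the HCT116 tables, against 10.0% and 9.90% of all genes. The median log2 ratio of the 19 listed in all tables was 3.39. At the upper end were TGFBI, a matrix protein, at 11.88, CCDC80, another matrix protein, at 10.54, and TGFB2, a TGF-beta ligand, at 8.64. At the lower end were the guanine nucleotide exchange factor DOCK5 at -0.10, the kinase NUAK2 at 0.41 and the stress gene GADD45A at 0.44, none of them called. FOXF2, a forkhead transcription factor, was listed in the RPE1 tables only, with means of 253.6 and 251.7, and could not be called. The choice of targets had earlier results in view and is not independent of them.

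The upstream pathway and the TEAD genes were mixed. Of 23 Hippo pathway and TEAD genes, 5 were called higher in the RPE1 tables and 1 in the HCT116 tables, against 10.0% and 9.90% of all genes, with a median log2 ratio of 0.10. The highest ratios were those of VGLL3, a cofactor of TEAD, at 7.39, of the atypical cadherin FAT4 at 3.12 and of the phosphatase PTPN14, which binds YAP, at 1.995. VGLL3 had means of 6.32 and 24.9 in the HCT116 tables and 1749 and 1778 in the RPE1 tables. The lowest were those of the atypical cadherin FAT1 at -1.76, which was called, of the scaffold WWC1 (KIBRA) at -1.62 and of the MST2 kinase gene STK3 at -0.98, which were not. The 4 TEAD genes were not called, with log2 ratios of 0.39 for TEAD1, -0.054 for TEAD2, 0.38 for TEAD3 and -0.012 for TEAD4, or from -0.40 to 0.050 with tables scaled to their totals. The core components SAV1 (-0.97), MOB1A (-0.57) and MOB1B (-0.43) were below 0 and were not called. The other scales lower every ratio by a common amount, so they could not have brought these above 0.

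Mesenchymal marker genes moved with the targets between the backgrounds. Of 6 such genes, 5 were called higher in the RPE1 tables, where 10.0% of all genes were, and CDH2 (N-cadherin) was listed in only 3 tables, with means of 7558 and 7766 in RPE1. The summed means of the list were 3268 and 1979 in the HCT116 tables and 598947 and 540212 in the RPE1 tables. VIM and FN1 made up most of the sums in the RPE1 tables, with FN1 at 1210 and 676.6 against 368294 and 373337. Of the 9 colon epithelial markers, only 3 were listed in all tables and could be called. Of these 3, KRT8 and KRT19 were called higher in the HCT116 tables (9.90% of all genes). Another 3 were listed in the HCT116 tables with a mean of at least 10 and absent from both RPE1 tables. Of the 8 pigment epithelium markers, only 4 could be called, and 2 were called in each direction, against the same shares. The part of cell type in the ratios of CTGF, ANKRD1 and AXL was not tested, and it cannot be told apart from other differences between the HCT116 and RPE1 cells, such as the tissue and the donor. On the other scales tried, the log2 ratios were at least 4.85 for CTGF, 8.54 for ANKRD1 and 4.10 for AXL.

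**Figure D5:**
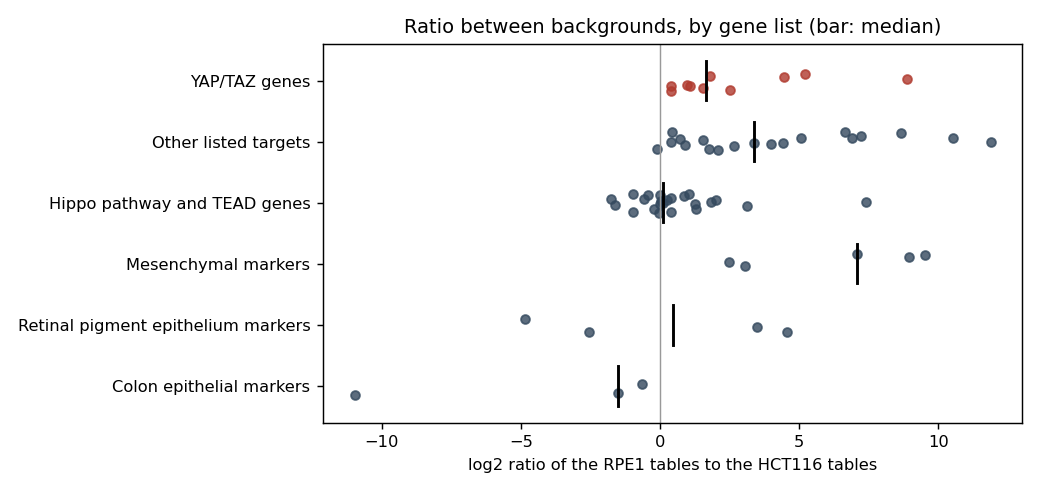
Log2 ratio of the RPE1 tables to the HCT116 tables (x axis) for the genes of 6 lists that are listed in all 4 tables, with 1 point per gene, a bar at the median and vertical jitter without meaning. The medians are 1.67 for the YAP/TAZ genes, 3.39 for the other targets, 0.10 for the Hippo pathway and TEAD genes and 7.08 for the mesenchymal markers.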

How the data were processed

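Total RNA libraries of 8 lines were sequenced by the authors, who removed adapters with cutadapt, mapped reads to hg19 with TopHat2 2.0.10, counted them on exons of RefSeq genes with featureCounts 1.4.3 and compared each aneuploid line with its parent with DESeq2. The deposited tables hold 1 signal column, the mean over 6 libraries of the counts divided by size factors, which was used, and 5 columns of the authors' comparison (log2 fold change, its standard error, statistic, p-value and adjusted p-value), which were not used. The tables have 0 columns of single libraries, and each was normalized separately.

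The 4 tables were divided by the median of ratios taken from genes whose mean reached 10 in each, a step tested on made-up tables with known factors. Few genes differed between the made-up backgrounds, and equally in both directions. That test therefore says nothing of the choice of scale for the real tables. Ratios between backgrounds are differences of mean log2 values over 2 tables each. Genes not in a table were not called. Positions and transcript lengths came from GENCODE on GRCh37, the build of hg19, by symbol for 93.2% of 16742 genes, 1430 of them by an older symbol in the RefSeq table of GRCh38.p14, which also gave the promoter sequences. The long arm of chromosome 11 was taken as the genes beyond the longest gap of its sequence.

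The 10 genes and the lists were chosen with earlier results of these data known. All 10 are named, and of the wider lists 3 genes at each end of the ratio. Other genes named (markers, VGLL3 means, FOXF2, SAV1, MOB1A, MOB1B, EDN1) were chosen after their values were seen. Calculations used pandas 2.3.3 and numpy 2.4.6 under Python 3.11.15, and plots matplotlib 3.10.9.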

Additional observations from a re-analysis of the deposited data

How the results depend on the processing

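The 2 other scales shifted the log2 ratios of all genes alike, by -0.26 with the means as deposited and -0.34 with tables scaled to their totals. All 20 log2 ratios between backgrounds of the 10 genes stayed above 0. For 10 of them the shift exceeded the gene's own spread between tables of a background. That count reflects how closely the tables agreed for a gene and not a larger shift. The lowest values of these 10 were 0.051 for YAP1, 0.055 for LATS1, 0.74 for LATS2, 1.44 for AMOTL1 and 4.10 for AXL. The ratios without a single table lie between those of the pairs of tables by construction and say nothing of stability. For CTGF they ran from 3.88 to 6.50. Without the HCT116 5/4 or the RPE1 5/3 12/3 table the 5 calls became 7. Of all genes, 13.3% and 12.0% were called higher in RPE1 without these tables, against 10.0% with all. Without the HCT116* 8/3 c7 or the RPE1* 21/3 table the calls stayed at 5. Leaving out a table can only keep or add calls, so the counts without a table say nothing of stability either. The 5 calls became 7 with a 1.5-fold limit and 3 with a 4-fold limit. Of all genes, 2508 and 2513 were called higher in RPE1 and in HCT116 with 1.5-fold, and 642 and 607 with 4-fold. The main setting gave 1523 and 1502. With tables scaled to their totals 1090 and 2293 genes were called. With the median instead of the longest transcript, 2 of the 10 genes kept their place in the order of levels per kilobase. TGGAAT in place of GGAATG was in the windows of 4 of the 9 genes against 6, and in 12.9% of all windows against 14.03%. No paired analysis was possible because the tables give no values of single libraries, and no replicate could be left out for the same reason.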

Other observations

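Among the genes whose pattern over the 4 tables was most like that of CTGF, by the Euclidean distance of centred log2 means on the common scale, were LMO7 (0.63) and TSPAN2 (0.96). Only 4 genes lay within a distance of 1 of CTGF. LMO7 had means of 529.1, 165.7, 7673 and 10601 in the HCT116 5/4 table, the HCT116* 8/3 c7 table, the RPE1 5/3 12/3 table and the RPE1* 21/3 table. For YAP1 the nearest genes were LOC100134713 (0.023), SEPT1 (0.039) and WDR11 (0.051), but 7375 genes lay within a distance of 1, so its flat pattern picks out little. With 4 tables these distances describe the tables alone.

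EDN1, the endothelin precursor among the listed targets, had a mean of 166.3 in the HCT116 5/4 table and of 9.11 in the HCT116* 8/3 c7 table, against 139.0 and 304.1 in the RPE1 tables, and was not called between backgrounds.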
